A study of Rattus norvegicus with 145 samples.

Results

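The livers described here came from female Crl:WI rats, an outbred Wistar stock, aged 8 to 10 weeks, that were gavaged daily for 28 days with acetamide at 1500 mg/kg/day (mkd) in water or with the water vehicle alone. They were chosen by the sex, duration and dose of their labels and number 10 of the 145 rats of the series, with 5 rats per group and 1 RNA-Seq library from the left liver lobe of each rat. Tissue was taken on day 29, the day after the last dose, in a randomized order. The rats were caged in pairs, and the cage is not given in the sources used here. All 30 female rats of day 29, those of the 300, 500, 750 and 1000 mkd groups included, shared a single fit. The comparison asks which hepatic genes differed at the highest dose of acetamide, a food contaminant known to cause liver tumours in rats.

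As background, nearly all hepatocytes of an adult liver rest outside the cell cycle, and they can re-enter it after tissue loss, injury or a mitogen. A cell that does so passes through G1 under cyclin D, copies its DNA in S phase with the products of E2F target genes, and then makes the cyclins, kinases and spindle proteins of G2 and mitosis. Many promoters of these late genes carry CCAAT boxes and a CHR element. Through the CHR element the DREAM complex keeps these genes silent in resting cells and B-MYB and FOXM1 drive them in cycling ones. The resting hepatocyte makes plasma proteins, transports and conjugates foreign compounds, and handles amino acids, lipids and bile acids.

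A gene counted as called when its level changed 1.5-fold or more in either direction with an adjusted p (Benjamini-Hochberg, quasi-likelihood test in edgeR) no higher than 0.05. Of 11451 genes tested, 1498 (13.1%) were called, 1093 (9.55%) up-regulated and 405 (3.54%) down-regulated. All 5 treated rats lay above all 5 vehicle rats at 402 genes (3.51% of those tested), 341 of them called, and below all vehicle rats at 300 genes (2.62%), 120 of them called. The median log2 fold change over all genes tested was -0.0018. TMM scaling itself holds most genes near 0, so this median does not show whether the background shifted. The TMM factors ran from 1.03 to 1.45 in treated rats and from 0.735 to 1.02 in vehicle rats, without overlap. Levels are CPM scaled by TMM factors, in the order of replicates 1 to 5, and are not corrected for gene length.

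The 5 treated rats were not alike. On the first principal component of the 500 most variable genes, which held 24.9% of the variance, the vehicle rats scored between -15.9 and -10.8 and treated replicates 1 to 4 scored 21.1, 32.7, 27.3 and 18.8. Treated replicate 5 scored 0.17, below the whole 1000 mkd group, which ran from 2.79 to 14.2. It was the lowest of the treated rats at 797 of the 1093 up-regulated genes and the highest at 207 of the 405 down-regulated genes. Without this rat 1982 genes were called, and at 749 of the 1093 up-regulated genes the other 4 treated rats all lay above all vehicle rats. Treated replicate 2 lay at the other end, and without it 802 genes were called (639 up and 163 down). A fit of the 10 rats alone called 488 genes, 397 up and 91 down. It estimates the spread from fewer rats and from these 2 groups only, without the lower doses.

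**Figure D1:**
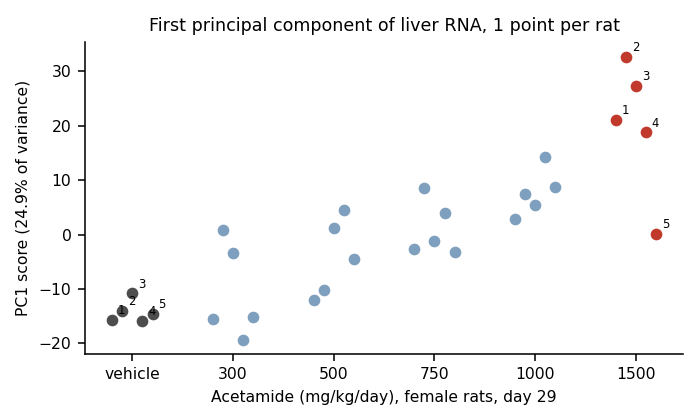
First principal component score (y axis, no unit) of the 30 female rats of day 29 by acetamide dose (x axis, mg/kg/day), 1 point per rat, with replicate numbers beside the vehicle rats (grey) and the 1500 mkd rats (red). Vehicle rats sit between -15.9 and -10.8, treated replicates 1 to 4 between 18.8 and 32.7, and treated replicate 5 at 0.17.

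Reads counted on genes ranged from 22718135 to 34018491 per rat over both groups (exact two-sided permutation test, p = 0.563). More genes had at least 1 read in the treated livers, 13087 ± 173 (SD, n = 5) against 12731 ± 127 (exact permutation test, p = 0.0159). Reads that fell on no gene made up 23.4 ± 1.5% of all counted lines in treated rats and 19.3 ± 2.0% in vehicle rats, and the groups did not overlap (exact permutation test, p = 0.00794, the smallest that 5 against 5 rats allow). The 10 most abundant genes took 24.4 ± 3.3% of the reads on genes in treated rats and 29.9 ± 3.7% in vehicle rats (exact permutation test, p = 0.0238). After Benjamini-Hochberg adjustment over the 8 measures compared, these p were 0.563, 0.0423, 0.0317 and 0.0476. The part of these shares in the gene results was not tested.

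The genes of G2 and mitosis formed the list with the highest share of up-regulated members. Of 46 members tested, 36 (78.3%) were up-regulated and 0 down-regulated, with a median log2 fold change of 2.15 against -0.0018 for all genes, and at 30 of them all treated rats lay above all vehicle rats. Leaving out any rat, another tool, another filter and the 10-rat fit left between 32 and 37 members called. The 10 members not called were Gtse1, Hjurp, Rangap1, Cbx5, Cks1b, Tmpo, Ctcf, Anp32e, Hn1 and Cenpa.

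The promoters of the kinase and cyclin that start mitosis, Cdk1 and Ccnb1, and of the proliferation antigen Mki67 are shown because the letters of both elements recur across this list. They are the 250 bases before the annotated start in RefSeq (GRCr8), 5′ to 3′ on the gene's strand, at chr20:19265043-19265292 (+), chr2:33655226-33655475 (-) and chr1:199952594-199952843 (-), and the capitals mark each CHR element (TTTGAA) and CCAAT box (CCAAT) on either strand.
Cdk1: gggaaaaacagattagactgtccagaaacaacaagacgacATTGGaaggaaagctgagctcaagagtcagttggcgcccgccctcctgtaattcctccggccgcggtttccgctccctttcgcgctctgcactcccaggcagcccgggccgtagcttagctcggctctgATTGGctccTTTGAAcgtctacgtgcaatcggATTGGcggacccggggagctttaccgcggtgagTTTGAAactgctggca
Ccnb1: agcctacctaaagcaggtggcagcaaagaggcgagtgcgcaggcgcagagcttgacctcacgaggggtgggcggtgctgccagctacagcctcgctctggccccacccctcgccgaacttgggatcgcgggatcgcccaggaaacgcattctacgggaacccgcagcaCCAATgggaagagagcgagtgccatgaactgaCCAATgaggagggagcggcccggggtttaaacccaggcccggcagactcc
Mki67: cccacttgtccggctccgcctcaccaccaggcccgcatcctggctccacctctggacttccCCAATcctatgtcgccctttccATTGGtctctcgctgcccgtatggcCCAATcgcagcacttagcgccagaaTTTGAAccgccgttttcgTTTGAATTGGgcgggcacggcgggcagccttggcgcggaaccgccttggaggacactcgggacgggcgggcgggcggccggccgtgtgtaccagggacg
In Mki67 a CHR element and a CCAAT box share letters, and Ccnb1 holds 2 CCAAT boxes and 0 CHR elements in these bases. RefSeq had a promoter for 32 of the 36 up-regulated members, and TTTGAA stood in 20 (62.5%) and CCAAT in 26 (81.2%), against 16.0% and 34.3% of all 27455 promoters of the same length. Among all 41 members tested that had a promoter, they stood in 23 (56.1%) and 30 (73.2%). Over the promoters of all genes tested the shares were 10.3% and 35.8%. A match is a match of letters alone.

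Mki67, which encodes the Ki67 antigen of cycling cells, was at 4.28, 4.46, 5.20, 4.24 and 6.08 CPM in vehicle rats and at 33.8, 31.3, 37.6, 34.8 and 10.1 CPM in treated rats. All treated rats lay above all vehicle rats, with replicate 5 far under the other 4. Mki67 rose by 2.61 on the log2 scale (SE 0.35, adjusted p = 5.26e-05). Cdk1, the mitotic kinase, was at 0.739, 0.754, 1.38, 0.734 and 1.72 CPM in vehicle rats and 10.6, 11.4, 12.4, 12.5 and 3.15 CPM in treated rats, and rose by 3.23 on the log2 scale (SE 0.48, adjusted p = 9.04e-05). Its partner cyclin B1, Ccnb1, was at 0.817, 1.18, 1.84, 0.571 and 1.84 CPM against 10.8, 9.38, 11.3, 14.5 and 4.81 CPM and rose by 3.02 on the log2 scale (SE 0.46, adjusted p = 1.25e-04). For both genes replicate 5 was again the lowest treated rat, and still above every vehicle rat.

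The kinetochore and checkpoint genes rose from very low levels. Ndc80, a subunit of the outer kinetochore, was at 0.117, 0.164, 0.419, 0.367 and 0.120 CPM in vehicle rats and 2.52, 3.38, 3.16, 2.73 and 1.45 CPM in treated rats, and rose by 3.48 on the log2 scale (SE 0.57, adjusted p = 2.01e-04). Ttk, the kinase that holds the spindle checkpoint, lay between 0.240 and 0.623 CPM in vehicle rats and between 1.19 and 5.56 CPM in treated rats, and rose by 3.26 on the log2 scale (SE 0.55, adjusted p = 2.73e-04). Ube2c, which loads ubiquitin for the anaphase-promoting complex, went from 0.160 to 0.377 CPM to 1.28 to 4.65 CPM and rose by 3.41 on the log2 scale (SE 0.50, adjusted p = 8.45e-05). At none of the 3 genes did the groups overlap. The same was true of Cdca3, Pbk, Prr11 and Fam83d, further genes of mitotic entry and the spindle that were among the 12 largest rises with separate groups, with log2 fold changes of 3.24, 3.49, 3.68 and 3.36. Calls at all of these genes held in every alternative fit that tested them, 15 of 16 for Prr11 and Fam83d and all 16 for the others.

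Of 37 S phase genes tested, 24 (64.9%) were up-regulated and 0 down-regulated, with a median log2 fold change of 0.87, and 11 had all treated rats above all vehicle rats. The 10-rat fit called 15. Rrm2, the regulated subunit of ribonucleotide reductase that supplies deoxynucleotides, was at 0.194, 0.0328, 0.293, 0.122 and 0.360 CPM in vehicle rats and 2.49, 2.63, 4.03, 2.36 and 0.553 CPM in treated rats, and rose by 3.60 on the log2 scale (SE 0.69, adjusted p = 8.51e-04). Exo1, an exonuclease of replication and mismatch repair, lay between 0.0408 and 0.194 CPM in vehicle rats and between 0.383 and 1.94 CPM in treated rats, and rose by 3.61 on the log2 scale (SE 0.55, adjusted p = 1.08e-04). Groups were apart at both genes. The subunits of the MCM helicase, which unwinds DNA at the fork, rose unequally. Mcm5 was at 0.972, 1.28, 1.42, 1.43 and 2.00 CPM against 9.16, 14.4, 19.7, 8.32 and 1.70 CPM, so that replicate 5 fell inside the vehicle range, and rose by 2.91 on the log2 scale (SE 0.50, adjusted p = 3.38e-04), while Mcm2 rose by 1.08 on the log2 scale (SE 0.28, adjusted p = 0.00813). Mcm3, Mcm4 and Mcm6 were called as well, with log2 fold changes of 2.37, 0.86 and 2.23.

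Among 35 regulators of the cycle tested, 16 (45.7%) were up-regulated and 0 down-regulated. They included the mitotic cyclin Ccna2, which lay between 0.245 and 0.720 CPM in vehicle rats and between 1.45 and 6.29 CPM in treated rats, and the transcription factors E2f1, E2f7, Mybl1, Mybl2 and Foxm1, whose log2 fold changes ran from 1.44 to 2.96. Cyclin D1, Ccnd1, the entry cyclin of G1, was at 82.0, 169, 99.6, 72.8 and 74.9 CPM in vehicle rats and 169.7, 253, 212, 207 and 149.6 CPM in treated rats. Vehicle replicate 2 stood apart from its group and reached the treated range. Ccnd1 rose by 0.99 on the log2 scale (SE 0.26, adjusted p = 0.00851), a smaller change than those of the mitotic cyclins. Members that restrain the cycle rose too, Cdkn2c by 1.97 and Cdkn3 by 2.49. Cdkn1a, the inhibitor p21, was at 30.3, 26.7, 11.1, 22.0 and 7.88 CPM in vehicle rats and 104, 135, 103, 66.3 and 42.6 CPM in treated rats without overlap, and rose by 2.20 on the log2 scale (SE 0.53, adjusted p = 0.00485). The kinases Cdk2, Cdk4 and Cdk6 and the factor Myc were not called.

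Motors and tubulins of the spindle were among the up-regulated genes. Of 27 kinesin genes tested, 14 (51.9%) were up-regulated and 0 down-regulated. Kif18b, a motor that shortens microtubule ends in mitosis, was at 0.428, 0.754, 0.670, 0.326 and 0.680 CPM in vehicle rats and 5.41, 5.31, 5.91, 5.39 and 1.91 CPM in treated rats, and rose by 3.05 on the log2 scale (SE 0.40, adjusted p = 4.86e-05). Kif22, which moves chromosome arms, rose by 2.92 on the log2 scale (SE 0.46, adjusted p = 1.33e-04), and Kif2c, which frees wrongly attached microtubules, by 2.84 on the log2 scale (SE 0.44, adjusted p = 1.30e-04). Groups were apart at all 3. Of 20 tubulin and microtubule genes tested, 7 (35.0%) were up-regulated and 0 down-regulated. Stmn1, which destabilizes microtubules, was at 2.53, 1.93, 3.60, 1.71 and 3.24 CPM against 12.5, 12.7, 11.8, 12.1 and 4.89 CPM and rose by 2.06 on the log2 scale (SE 0.30, adjusted p = 7.96e-05). Tubb6, a beta tubulin, went from 2.29 to 11.5 CPM to 14.3 to 33.4 CPM and rose by 2.11 on the log2 scale (SE 0.41, adjusted p = 0.00102). Tuba1a, an alpha tubulin, rose by 0.92 on the log2 scale (SE 0.21, adjusted p = 0.00286).

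The lower doses share the vehicle rats with this comparison and are given as levels alone. For Mki67 the group means at 300, 500, 750 and 1000 mkd were 6.76, 10.3, 13.2 and 15.3 CPM. Those of Cdk1 were 1.70, 3.02, 4.56 and 4.39 CPM, and those of Cdkn1a were 14.9, 27.2, 26.2 and 50.7 CPM. The mean of Mki67 was higher at each step to 1500 mkd, where it was 29.5 CPM, while that of Cdk1 was level between 750 and 1000 mkd and that of Cdkn1a lay below the vehicle mean at 300 mkd. At 300 mkd replicate 2 raised the Mki67 mean, at 13.6 CPM. The other rats of that dose lay between 4.21 and 6.23 CPM, against 4.24 to 6.08 CPM in vehicle rats. For Cdk1 the same rat was at 4.19 CPM and the others between 0.586 and 2.12 CPM.

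**Figure D2:**
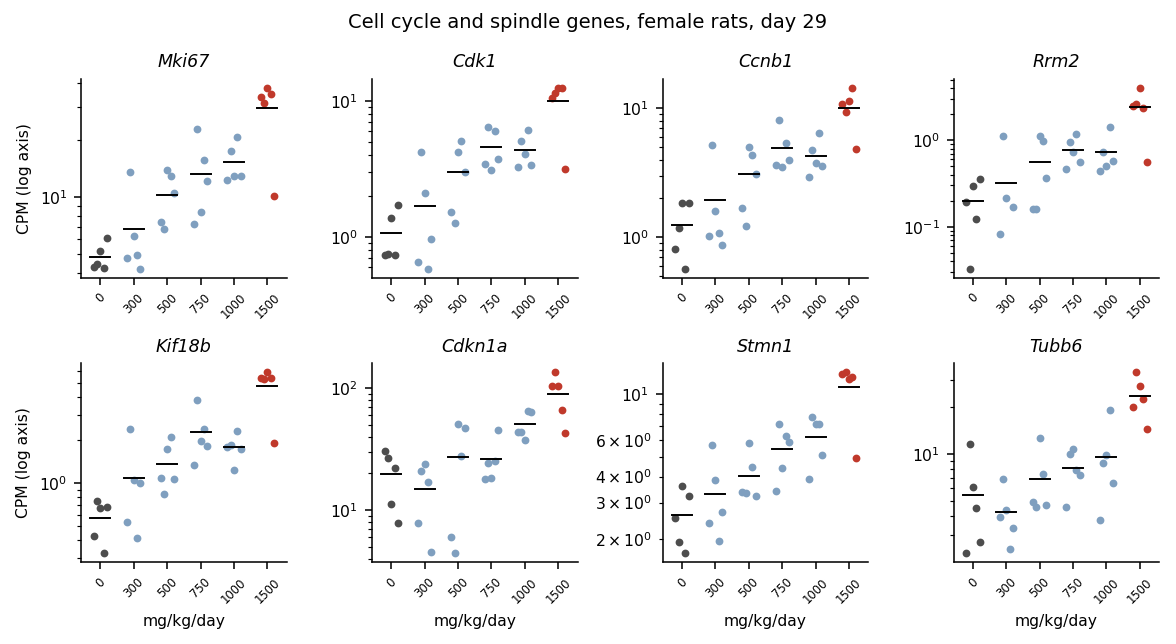
Expression (y axis, CPM on a log axis) of 8 cell cycle and spindle genes by dose (x axis, mg/kg/day) in female rats of day 29, 1 point per rat, with the group mean as a line (vehicle grey, 1500 mkd red, other doses blue). The 1500 mkd rats lie above the vehicle rats in each panel, and in the panels of Mki67, Cdk1, Kif18b and Stmn1 replicate 5 is the low red point, for Mki67 at 10.1 CPM under 31.3 to 37.6 CPM.

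Of 21 p53 targets tested, 2 (9.52%) were up-regulated, close to the 9.55% of all genes, namely Cdkn1a and Phlda3, an inhibitor of AKT signalling, and 4 were without treated replicate 5. Phlda3 was at 20.0, 20.2, 11.1, 10.6 and 15.0 CPM against 35.3, 26.8, 22.3, 29.3 and 22.0 CPM, without overlap, and rose by 0.82 on the log2 scale (SE 0.21, adjusted p = 0.00766). In the 10-rat fit it was not called at 0.81 (adjusted p = 0.0522). Of 28 growth factors and receptors, 5 (17.9%) were up-regulated and 0 down-regulated, and the count was 0 without treated replicate 2, 1 without vehicle replicate 5 and in the 10-rat fit, 2 without vehicle replicate 1 and 3 without vehicle replicate 4. Tnfrsf12a, the receptor of TWEAK that marks stressed and progenitor cells, was at 8.63, 10.1, 9.18, 8.60 and 5.72 CPM against 15.8, 34.7, 12.8, 16.7 and 12.0 CPM and rose by 1.13 on the log2 scale (SE 0.31, adjusted p = 0.0121). Without treated replicate 2 its log2 fold change was 0.77 (adjusted p = 0.0943). The EGF receptor, Egfr, had a log2 fold change of -0.53 (SE 0.25, adjusted p = 0.133) and was not called. Of 27 apoptosis genes, 5 (18.5%) were up-regulated and 1 down-regulated, 2 and 0 without treated replicate 2, and 1 and 0 in the 10-rat fit. Casp1, the protease of the inflammasome, went from 4.74 to 7.48 CPM to 8.04 to 21.7 CPM and rose by 1.07 on the log2 scale (SE 0.24, adjusted p = 0.00267), in every alternative fit.

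Part of the interferon response genes, the antiviral genes that STAT and IRF factors switch on, were up-regulated. Of 42 members tested, 16 (38.1%) were up-regulated and 0 down-regulated, with a median log2 fold change of 0.48, but at only 2 were all treated rats above all vehicle rats. The 10-rat fit called 6. The promoters of Gbp4, a guanylate-binding GTPase, and Rsad2, the antiviral enzyme viperin, are shown for the letters of the interferon-stimulated response element (GAAA, any 2 bases and GAAA, on either strand, in capitals), from RefSeq (GRCr8) at chr2:233978236-233978485 (+) and chr6:48788121-48788370 (-).
Gbp4: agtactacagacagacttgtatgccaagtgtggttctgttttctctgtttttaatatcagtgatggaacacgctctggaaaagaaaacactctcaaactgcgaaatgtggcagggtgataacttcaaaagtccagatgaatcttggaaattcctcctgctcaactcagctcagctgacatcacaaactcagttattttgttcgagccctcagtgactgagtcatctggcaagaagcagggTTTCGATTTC
Rsad2: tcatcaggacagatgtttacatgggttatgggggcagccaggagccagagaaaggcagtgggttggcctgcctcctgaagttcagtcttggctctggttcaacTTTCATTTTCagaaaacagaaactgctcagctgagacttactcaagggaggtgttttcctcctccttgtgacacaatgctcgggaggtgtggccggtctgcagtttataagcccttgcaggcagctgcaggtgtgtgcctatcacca
Among the 12 up-regulated members with a promoter in RefSeq, 8 (66.7%) held these letters, as did 20 of the 32 (62.5%) with a promoter among all members tested, against 3.29% of all promoters. Over the promoters of all genes tested the share was 2.71%.

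Gbp4 was at 0.894, 1.08, 0.754, 1.59 and 1.32 CPM in vehicle rats and 4.19, 33.8, 51.5, 3.20 and 1.79 CPM in treated rats. Replicates 2 and 3 were far above the other treated rats, which were still all above the vehicle rats. Gbp4 rose by 4.07 on the log2 scale (SE 0.64, adjusted p = 1.56e-04), and by 3.26 (adjusted p = 7.03e-04) without treated replicate 3. Rsad2 was at 7.47, 3.02, 3.14, 6.03 and 9.12 CPM against 20.6, 31.0, 72.1, 30.8 and 5.36 CPM, with replicate 3 the highest and replicate 5 inside the vehicle range, and rose by 2.48 on the log2 scale (SE 0.50, adjusted p = 0.00137). Ifit1, which binds viral RNA, was near 0 in the vehicle rats at 0.117, 0.0656, 0.168, 0 and 0.200 CPM and in 3 treated rats, and only replicates 2 and 3 departed from this, at 22.6 and 85.8 CPM. Its log2 fold change of 7.59 (SE 2.39, adjusted p = 0.0258) rests on these 2 rats and was 5.68 (adjusted p = 0.0984) without replicate 3. The call was also lost without vehicle replicate 1, 4 or 5, and 5 of the 15 alternative fits that tested Ifit1 ended it in all. Rats at 300, 500 and 750 mkd held Ifit1 at up to 24.4, 29.1 and 28.8 CPM as well, while at 1000 mkd it did not pass 0.16 CPM. The other up-regulated members were Irf7, Oas2, Oas3, Oasl, Oasl2, Zbp1, Gbp2, Gbp5, Isg15, Mx1, Ifit3, Cmpk2 and Psmb9, with log2 fold changes between 0.60 and 2.47.

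Some markers of macrophages were up-regulated in the treated livers. In bulk RNA, more cells of a type and more RNA per cell cannot be told apart. Of 14 macrophage markers tested, 5 (35.7%) were up-regulated and 0 down-regulated, with a median log2 fold change of 0.73, and 2 were left in the 10-rat fit and in each fit without treated replicate 2 or 3 or vehicle replicate 1, 4 or 5, against 10 without treated replicate 5. C1qb, a chain of complement C1q that Kupffer cells make, was at 106, 131, 146, 114 and 102 CPM in vehicle rats and 230.2, 303, 286, 159 and 149 CPM in treated rats without overlap, and rose by 0.91 on the log2 scale (SE 0.24, adjusted p = 0.00906). Gpnmb, a membrane glycoprotein of lipid-laden and tissue-remodelling macrophages, was at 19.1, 28.3, 22.8, 19.2 and 17.3 CPM against 159.9, 275, 215, 91.5 and 39.3 CPM, with replicate 2 the highest and replicate 5 the lowest of the treated rats, and rose by 2.87 on the log2 scale (SE 0.41, adjusted p = 7.96e-05). Its group means at 300, 500, 750 and 1000 mkd were 29.7, 34.8, 39.2 and 69.9 CPM. Lgals3, galectin-3, which macrophages and regenerating cells make, went from 11.4 to 22.0 CPM to 19.0 to 145 CPM and rose by 1.92 on the log2 scale (SE 0.38, adjusted p = 0.00106). Cd44, the hyaluronan receptor, went from 2.45 to 4.65 CPM to 5.79 to 27.3 CPM without overlap and rose by 1.92 on the log2 scale (SE 0.32, adjusted p = 2.75e-04). Lgals3, Cd44 and Stmn1 also led the list of liver preneoplasia and progenitor genes. Of its 26 members tested 10 (38.5%) were up-regulated and 1 (3.85%) down-regulated, against 9.55% and 3.54% of all genes. The up-regulated count was 5 in the 10-rat fit and without treated replicate 2 or vehicle replicate 1. Gstp1, the classical enzyme marker of rat preneoplastic foci, was not called, at a log2 fold change of 0.41 (SE 0.21, adjusted p = 0.171). Prom1, a progenitor surface protein, went the other way, from 7.17 to 27.4 CPM to 3.38 to 10.2 CPM. It fell by 1.42 on the log2 scale (SE 0.49, adjusted p = 0.0387), and lost the call in 7 of the 16 alternative fits, for example at -1.14 (adjusted p = 0.119) without vehicle replicate 4.

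Of 34 extracellular matrix genes tested, 9 (26.5%) were up-regulated and 0 down-regulated, 3 in the 10-rat fit and 4 without treated replicate 2. Lama5, a laminin chain of basement membranes, was at 4.51, 7.28, 7.37, 3.79 and 2.40 CPM in vehicle rats and 32.4, 43.2, 28.2, 20.8 and 7.02 CPM in treated rats, and rose by 2.38 on the log2 scale (SE 0.33, adjusted p = 7.35e-05). Replicate 5 lay inside the vehicle range. Mmp12, the macrophage elastase, went from 0.229 to 0.712 CPM to 0.298 to 2.70 CPM and rose by 2.05 on the log2 scale (SE 0.52, adjusted p = 0.00662). Bgn, the proteoglycan biglycan, rose by 0.90 on the log2 scale (SE 0.20, adjusted p = 0.00230), and Col1a1, the main fibrillar collagen of scars, had a log2 fold change of 0.49 (SE 0.30, adjusted p = 0.266) and was not called. Of 8 stellate cell markers 2 (25.0%, against 9.55% of all genes) were up-regulated. They were the PDGF receptor Pdgfrb, by 0.94 on the log2 scale (SE 0.16, adjusted p = 3.75e-04), and the neurotrophin receptor Ngfr, by 1.90 on the log2 scale (SE 0.55, adjusted p = 0.0161).

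**Figure D3:**
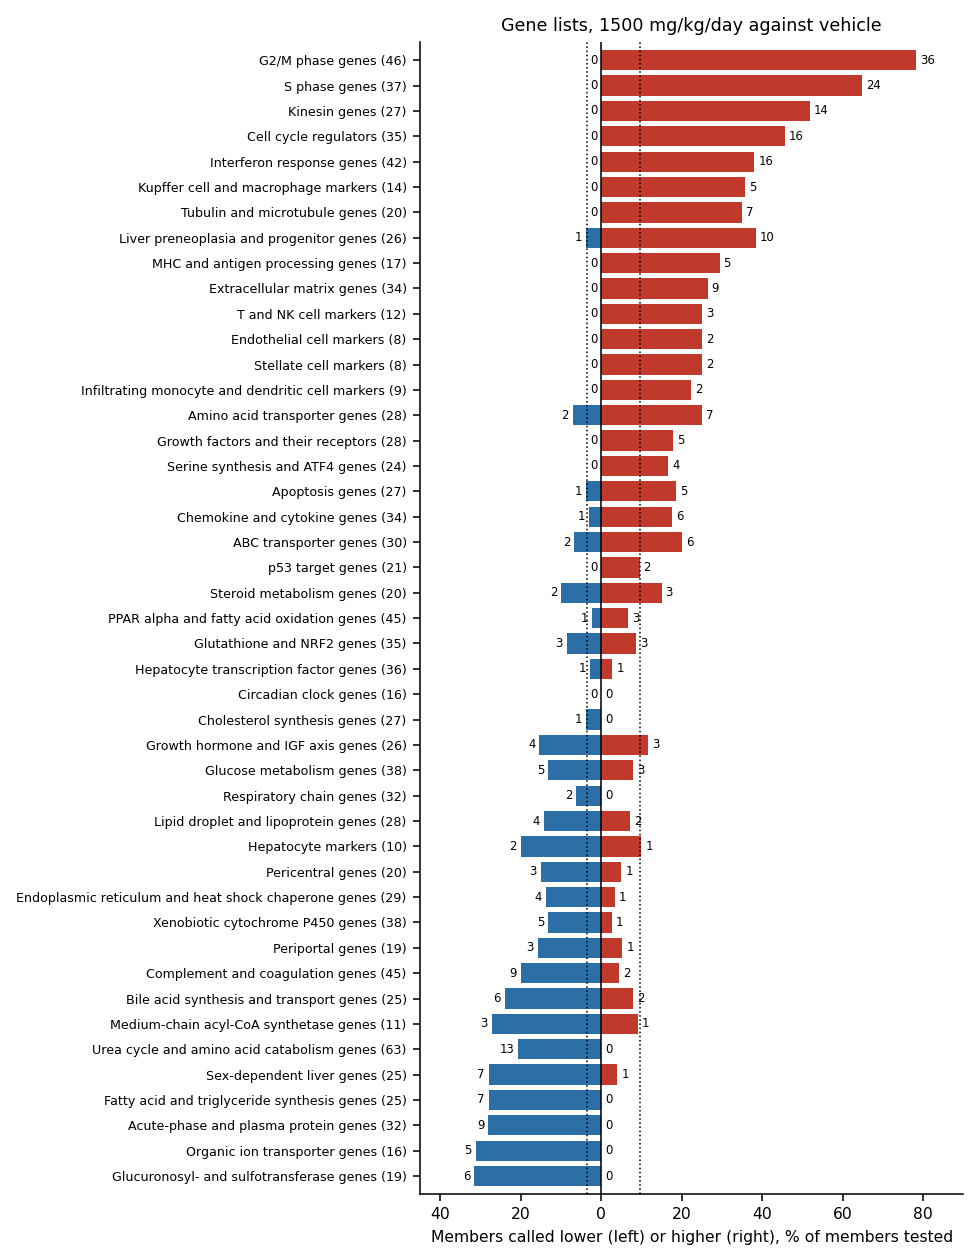
Share of the tested members of each gene list (y axis, number tested in brackets) that were called down-regulated (blue, left) or up-regulated (red, right) at 1500 mkd against vehicle, as % of members tested (x axis), with the number called at the end of each bar and lists of at least 8 tested members shown. Dotted lines mark the shares over all genes, 3.54% down and 9.55% up, and the longest red bars are those of the G2/M genes (36 of 46) and the S phase genes (24 of 37).

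Transporters changed in both directions. Of 30 ABC transporter genes tested, 6 (20.0%) were up-regulated and 2 down-regulated, 3 and 0 in the 10-rat fit. The down-regulated count was 0 without treated replicate 2 or vehicle replicate 4 and 5 without vehicle replicate 3. Abcb1b, a P-glycoprotein that pumps drugs and other compounds out of cells, was at 11.5, 5.41, 4.65, 3.22 and 6.88 CPM in vehicle rats and 84.0, 25.8, 39.3, 75.5 and 13.1 CPM in treated rats without overlap, and rose by 2.90 on the log2 scale (SE 0.53, adjusted p = 5.36e-04). Its group means at the lower doses were 8.91, 12.3, 21.0 and 64.4 CPM, so that the 1000 mkd mean exceeded that at 1500 mkd, 47.5 CPM. Abcc3, which exports bile acid and drug conjugates to the blood, went from 8.81 to 16.5 CPM to 12.8 to 59.2 CPM and rose by 1.55 on the log2 scale (SE 0.37, adjusted p = 0.00458). Of 16 organic ion transporters tested, 0 were up-regulated and 5 (31.2%) down-regulated, 1 in the 10-rat fit and 2 without treated replicate 2. Slc10a1, the bile acid uptake carrier NTCP, fell by 0.99 on the log2 scale (SE 0.26, adjusted p = 0.00859), and its log2 fold change was -0.70 (adjusted p = 0.0566) without vehicle replicate 5 and -1.01 (adjusted p = 0.0895) in the 10-rat fit, where it was not called.

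Calls among conjugating enzymes were decreases, and most members, as most cytochromes P450, were not called. Of 19 glucuronosyl- and sulfotransferases tested, 0 were up-regulated and 6 (31.6%) down-regulated, 2 of them in the 10-rat fit and without treated replicate 2 or vehicle replicate 5, and 3 without treated replicate 3 or vehicle replicate 1. Sult1c3, a cytosolic sulfotransferase, was at 6.73, 4.03, 3.90, 16.7 and 23.4 CPM in vehicle rats and 1.19, 0.915, 3.44, 1.21 and 1.83 CPM in treated rats without overlap, and fell by 2.67 on the log2 scale (SE 0.62, adjusted p = 0.00378). Its paralog Sult1c2a went from 34.6 to 85.2 CPM to 6.86 to 27.8 CPM and fell by 1.56 on the log2 scale (SE 0.29, adjusted p = 6.75e-04). Both calls held in every alternative fit. Of 38 xenobiotic cytochrome P450 genes tested, 1 was up-regulated and 5 (13.2%) down-regulated, and 1 and 0 in the 10-rat fit. Cyp1a1, the marker of aryl hydrocarbon receptor activity, was not called, at 1.01, 1.08, 1.97, 1.06 and 0.760 CPM against 0.781, 6.01, 3.06, 0.775 and 0.766 CPM. Cyp3a62, a member of the pregnane-inducible CYP3A family, went from 5.91 to 8.05 CPM to 6.13 to 30.7 CPM and rose by 1.30 on the log2 scale (SE 0.30, adjusted p = 0.00391). Cyp2c12, the steroid hydroxylase typical of female rat liver, went from 2601 to 7748 CPM to 1191 to 3377 CPM and fell by 1.14 on the log2 scale (SE 0.28, adjusted p = 0.00527), though not in the 10-rat fit, at -1.16 (adjusted p = 0.0678). Of 35 glutathione and NRF2 genes 3 (8.57%) were up-regulated and 3 (8.57%) down-regulated, against 9.55% and 3.54% of all genes, and 0 in the 10-rat fit. The up-regulated count was 1 without treated replicate 2 or 3 or vehicle replicate 4 or 5 and 5 without treated replicate 5, and the down-regulated count was 5 without treated replicate 4. Nqo1, a quinone reductase that NRF2 induces, was at 94.9, 15.0, 8.97, 26.9 and 24.1 CPM against 13.8, 13.9, 15.4, 13.6 and 8.55 CPM. A single vehicle rat, replicate 1, set it apart, and its log2 fold change of -1.38 (SE 0.35, adjusted p = 0.00752) was -0.51 (adjusted p = 0.109) without that rat. Reads of such close paralogs, here the Sult1c, Cyp2c and Cyp3a genes and below Acot1 and the metallothioneins, may have been split or dropped in alignment, and their values are uncertain to that extent.

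Both metallothioneins described here and 4 receptors of the growth hormone and IGF axis list were down-regulated. Mt2A, a zinc- and glucocorticoid-responsive metal-binding protein, was at 212, 108, 116, 197 and 138 CPM in vehicle rats and 45.6, 28.7, 40.4, 24.1 and 50.0 CPM in treated rats without overlap, and fell by 2.03 on the log2 scale (SE 0.44, adjusted p = 0.00212). Mt1a went from 184 to 332 CPM to 44.4 to 126 CPM, also without overlap, and fell by 1.59 on the log2 scale (SE 0.40, adjusted p = 0.00682). For Mt2A the means at 300, 500, 750 and 1000 mkd were 156, 72.1, 136 and 120.0 CPM, not ordered by dose. Lepr, the leptin receptor, was at 40.7, 22.4, 24.9, 46.7 and 31.9 CPM against 3.30, 4.83, 2.34, 10.3 and 20.4 CPM, with replicates 4 and 5 nearest to the vehicle rats, and fell by 2.03 on the log2 scale (SE 0.45, adjusted p = 0.00274). Its group means at the lower doses were 35.7, 18.4, 16.7 and 13.6 CPM. Of 26 growth hormone and IGF axis genes tested, 3 (11.5%) were up-regulated and 4 (15.4%) down-regulated, against 9.55% and 3.54% of all genes. All 4 of the latter were cytokine-type receptors, and 2 were down-regulated without treated replicate 2 or vehicle replicate 4 and in the 10-rat fit. Besides Lepr these were the growth hormone receptor Ghr, which fell by 1.01 on the log2 scale (SE 0.25, adjusted p = 0.00562), the prolactin receptor Prlr, by 1.29 on the log2 scale (SE 0.39, adjusted p = 0.0220), and the LIF receptor Lifr, by 1.51 on the log2 scale (SE 0.46, adjusted p = 0.0201). Without treated replicate 2 the log2 fold changes of Prlr and Lifr were -1.07 (adjusted p = 0.0771) and -1.33 (adjusted p = 0.0745), and without vehicle replicate 4 they were -0.94 (adjusted p = 0.0985) and -1.21 (adjusted p = 0.0726). Prlr also lost the call without treated replicate 3, at -1.20 (adjusted p = 0.0574). In the 10-rat fit Ghr and Prlr were not called, at -1.02 (adjusted p = 0.0621) and -1.30 (adjusted p = 0.0893).

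Calls among lipid synthesis genes were decreases, and most members were not called. Of 25 fatty acid and triglyceride synthesis genes tested, 0 were up-regulated and 7 (28.0%) down-regulated, with a median log2 fold change of -0.65, 4 in the 10-rat fit or without treated replicate 1 and 3 without treated replicate 2 or vehicle replicate 3. Scd1, the desaturase that makes oleate, was at 443, 136, 904, 416 and 1511 CPM in vehicle rats and 15.4, 96.7, 56.4, 58.2 and 139.9 CPM in treated rats, where the highest treated rat just passed the lowest vehicle rat, and fell by 3.22 on the log2 scale (SE 0.77, adjusted p = 0.00480). Fasn, the fatty acid synthase, was at 87.3, 193, 1494, 54.7 and 90.3 CPM against 59.2, 65.6, 83.4, 90.3 and 192 CPM. Vehicle replicate 3 alone stood far above all others, and the log2 fold change of -1.97 (SE 0.66, adjusted p = 0.0356) was -0.12 (adjusted p = 0.877) without it. Fasn lost the call in 7 of the 16 alternative fits. Acly, which supplies cytosolic acetyl-CoA, had the same high rat, with log2 fold changes of -1.61 (SE 0.48, adjusted p = 0.0201) over all rats and -0.29 (adjusted p = 0.500) without it, and lost the call in 4 of the alternative fits. Pklr, the liver pyruvate kinase, fell by 1.81 on the log2 scale (SE 0.44, adjusted p = 0.00507), and its log2 fold change was -0.96 (adjusted p = 0.0432) without that rat and -1.81 (adjusted p = 0.0624) in the 10-rat fit, where it was not called. Lpl, lipoprotein lipase, which is low in resting adult hepatocytes, went from 2.85 to 7.04 CPM to 7.46 to 18.1 CPM without overlap and rose by 1.33 on the log2 scale (SE 0.30, adjusted p = 0.00320). Of 45 genes of PPARα and fatty acid oxidation, 3 (6.67%) were up-regulated, against 9.55% of all genes, and 1 down-regulated, 4 without treated replicate 4 or 5. Acot1, a cytosolic acyl-CoA thioesterase, was at 0.156, 1.54, 9.51, 0.652 and 1.20 CPM against 7.17, 198, 30.2, 40.5 and 33.4 CPM. Vehicle replicate 3 and treated replicate 2 stood above their groups, and the log2 fold change of 4.58 (SE 1.16, adjusted p = 0.00692) was 6.10 (adjusted p = 0.00237) and 3.43 (adjusted p = 0.0432) without the one or the other. Cpt1b, the muscle-type carnitine palmitoyltransferase, went from 2.08 to 3.54 CPM to 3.70 to 6.20 CPM without overlap and rose by 0.83 on the log2 scale (SE 0.21, adjusted p = 0.00608). Of 27 cholesterol synthesis genes 0 were up-regulated and 1 (3.70%, against 3.54% of all genes) was down-regulated, 4 by DESeq2 and 10 without treated replicate 5.

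**Figure D4:**
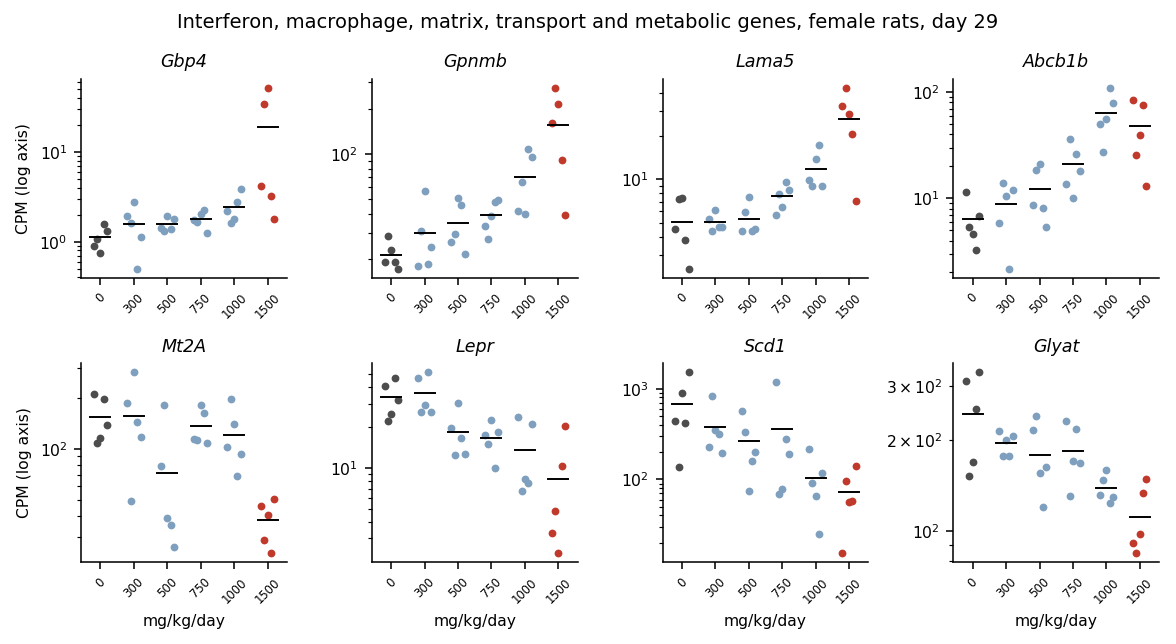
Expression (y axis, CPM on a log axis) of 8 genes of interferon response, macrophages, matrix, transport and metabolism by dose (x axis, mg/kg/day) in female rats of day 29, 1 point per rat with the group mean as a line (vehicle grey, 1500 mkd red, other doses blue). Gbp4, Gpnmb, Lama5 and Abcb1b are higher and Mt2A, Lepr, Scd1 and Glyat lower at 1500 mkd, and 2 rats carry Gbp4 at 33.8 and 51.5 CPM.

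Among the genes that break down amino acids the calls were decreases, and most members were not called. Of 63 urea cycle and amino acid catabolism genes tested, 0 were up-regulated and 13 (20.6%) down-regulated, with a median log2 fold change of -0.42, and 0 were called in the 10-rat fit, 3 without treated replicate 2, 8 without vehicle replicate 5 and 21 without vehicle replicate 3. Oat, ornithine aminotransferase, went from 211 to 560.5 CPM to 88.6 to 287 CPM and fell by 1.14 on the log2 scale (SE 0.32, adjusted p = 0.0124), and its log2 fold change was -0.98 (adjusted p = 0.0534) without treated replicate 2. Cdo1, which starts the oxidation of cysteine to taurine, was at 2038, 1135, 1166, 2067 and 1991 CPM against 773, 680.4, 947, 706 and 1287 CPM and fell by 0.93 on the log2 scale (SE 0.22, adjusted p = 0.00449). Aadat, a transaminase of lysine and tryptophan breakdown, fell by 0.85 on the log2 scale (SE 0.18, adjusted p = 0.00202). Cps1, the first enzyme of the urea cycle, fell by 0.74 on the log2 scale (SE 0.25, adjusted p = 0.0402) and lost the call in 9 of the 16 alternative fits, with a log2 fold change of -0.62 (adjusted p = 0.109) without vehicle replicate 4. Of 11 genes of the medium-chain acyl-CoA synthetase list 1 (9.09%) was up-regulated and 3 (27.3%) down-regulated, against 9.55% and 3.54% of all genes. The down-regulated count was 2 without treated replicate 2 and 5 without treated replicate 5 or vehicle replicate 1 or 2. Among the down-regulated members was Glyat, which conjugates benzoate with glycine, at 314, 152, 169, 253 and 334 CPM against 91.8, 84.9, 98.3, 134 and 148 CPM. The groups did not overlap, and Glyat fell by 1.13 on the log2 scale (SE 0.21, adjusted p = 5.56e-04) in every alternative fit.

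Amino acid carriers were called in both directions. Of 28 tested, 7 (25.0%) were up-regulated and 2 down-regulated, 4 and 0 without treated replicate 2, 4 and 1 without treated replicate 3, and 3 and 1 in the 10-rat fit. Slc6a6, the taurine transporter, was at 3.77, 2.16, 1.93, 3.06 and 1.52 CPM in vehicle rats and 8.01, 14.3, 14.6, 11.5 and 2.85 CPM in treated rats, where replicate 5 alone lay in the vehicle range, and rose by 2.05 on the log2 scale (SE 0.48, adjusted p = 0.00413). Slc43a2, a carrier of neutral amino acids, went from 7.62 to 12.6 CPM to 12.1 to 44.2 CPM and rose by 1.32 on the log2 scale (SE 0.23, adjusted p = 2.96e-04). Slc7a1, the cationic amino acid transporter, was at 0.544, 1.47, 1.13, 0.856 and 0.520 CPM against 1.45, 3.70, 4.13, 1.89 and 0.681 CPM and rose by 1.39 on the log2 scale (SE 0.38, adjusted p = 0.0108), but lost the call without treated replicate 2 at 1.19 (adjusted p = 0.0511) and without treated replicate 3 at 1.10 (adjusted p = 0.0505), and in the 10-rat fit. Phgdh, the first enzyme of serine synthesis, went from 0.229 to 0.622 CPM to 0.924 to 1.88 CPM without overlap and rose by 1.52 on the log2 scale (SE 0.34, adjusted p = 0.00301). Phgdh was 1 of 4 members (16.7%, against 9.55% of all genes) up-regulated, with 0 down-regulated, among 24 serine synthesis and ATF4 genes. The up-regulated count was 2 without treated replicate 2 and 1 in the 10-rat fit.

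Of 32 acute-phase and plasma protein genes tested, 0 were up-regulated and 9 (28.1%) down-regulated, and of 45 complement and coagulation genes 2 were up-regulated and 9 (20.0%) down-regulated. In the 10-rat fit these counts were 0 down for the first list and 1 up and 0 down for the second, and without treated replicate 2 they were 5 down and 4 down. Alb, albumin, was at 150826, 161391, 127700.0, 279675 and 297481 CPM in vehicle rats and 124252, 46923, 103463, 112089 and 128693 CPM in treated rats and fell by 0.98 on the log2 scale (SE 0.26, adjusted p = 0.0103). Gc, the vitamin D-binding protein, went from 10260.2 to 15375 CPM to 4078 to 8766 CPM without overlap and fell by 0.75 on the log2 scale (SE 0.16, adjusted p = 0.00243). C8g, a chain of the complement attack complex, went from 419 to 514 CPM to 135 to 387 CPM without overlap and fell by 0.79 on the log2 scale (SE 0.19, adjusted p = 0.00504). Pzp, a protease-trapping macroglobulin of rat plasma, fell by 1.07 on the log2 scale (SE 0.24, adjusted p = 0.00313). None of these 4 was called in the 10-rat fit, where the adjusted p ran from 0.0653 to 0.104. Apoa1, the main protein of HDL, went the other way, at 1671, 2252, 3063, 2257 and 2439 CPM against 3783, 5655, 4869, 2892 and 4845 CPM. The groups overlapped between 2892 and 3063 CPM, and Apoa1 rose by 0.92 on the log2 scale (SE 0.23, adjusted p = 0.00740).

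Of 29 endoplasmic reticulum and heat shock chaperones tested, 1 was up-regulated and 4 (13.8%) down-regulated, 2 without treated replicate 1, 2 or 3 or vehicle replicate 4 or 5. Pdia4, a disulfide isomerase of the endoplasmic reticulum, was at 577, 467, 470.4, 636 and 938 CPM against 310.2, 279, 311, 369.6 and 384 CPM without overlap and fell by 0.90 on the log2 scale (SE 0.18, adjusted p = 0.00139). Dnajb1, an HSP40 co-chaperone, went from 70.3 to 179.9 CPM to 52.1 to 63.6 CPM, also without overlap, and fell by 0.90 on the log2 scale (SE 0.22, adjusted p = 0.00480). Of 16 circadian clock genes tested, 0 were called in either direction by edgeR or DESeq2, with 1 at an unadjusted p under 0.05, and 1 was called without treated replicate 1.

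Several of the larger decreases with separate groups lay in genes best known from other tissues. Ky, a muscle protein of the transglutaminase-like family, was at 7.08, 16.3, 46.0, 26.4 and 35.2 CPM in vehicle rats and 3.12, 0, 1.05, 1.95 and 4.00 CPM in treated rats, and fell by 3.73 on the log2 scale (SE 0.83, adjusted p = 0.00268). Lhx8, a homeobox factor of the forebrain, was at 7.54, 6.39, 19.4, 5.38 and 5.76 CPM against 0.925, 1.35, 1.69, 1.08 and 4.13 CPM, with vehicle replicate 3 and treated replicate 5 above their groups, and fell by 2.30 on the log2 scale (SE 0.41, adjusted p = 4.38e-04). Nptx2, a neuronal pentraxin, fell by 1.81 on the log2 scale (SE 0.39, adjusted p = 0.00204). Calls at these 3 genes held in every alternative fit. Rgs16, a regulator of G protein signalling, was at 144, 64.4, 193, 139 and 114 CPM against 8.70, 6.81, 28.6, 2.36 and 46.6 CPM and fell by 2.82 on the log2 scale (SE 0.89, adjusted p = 0.0260), but was not called without treated replicate 1, 2 or 4, with an adjusted p from 0.0515 to 0.0832. At the other end, Adgrg2, an adhesion G protein-coupled receptor, held 0 to 3 reads in vehicle rats and 4 reads or more in treated rats, at 0.491, 5.15, 0.924, 3.27 and 0.170 CPM, and the call (adjusted p = 0.000183) held in each fit that tested it.

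Some markers of blood and of neighbouring tissue were down-regulated. Of 6 erythroid markers tested 3 (50.0%, against 3.54% of all genes) were down-regulated, none in the 10-rat fit and 1 without vehicle replicate 5. The summed level of the list ran from 76.8 to 264 CPM in vehicle rats and from 26.2 to 104 CPM in treated rats. Slc4a1, the red cell anion exchanger, was at 11.9, 2.75, 2.18, 1.59 and 1.80 CPM against 0.694, 1.62, 0.616, 0.943 and 1.15 CPM, and its log2 fold change of -2.00 (SE 0.54, adjusted p = 0.0104) was -1.04 (adjusted p = 0.128) without vehicle replicate 1. Of 4 markers of pancreatic acinar cells tested, 1 (25.0%, against 3.54% of all genes) was down-regulated. The summed level of this list ran from 37.7 to 276 CPM in vehicle rats and from 8.32 to 107 CPM in treated rats. The protease Cpa1 was at 34.7, 147, 174, 274 and 261 CPM against 17.1, 7.68, 38.5, 10.8 and 106 CPM. It fell by 2.31 on the log2 scale (SE 0.68, adjusted p = 0.0171), had a log2 fold change of -3.27 (adjusted p = 0.00118) without treated replicate 5, and lost the call without treated replicate 2 at -2.05 (adjusted p = 0.0580) and in the 10-rat fit at -2.33 (adjusted p = 0.0763). Their part in the other results was not tested. Of 10 hepatocyte markers all passed the filter on low counts, and 1 (10.0%) was up-regulated (Apoa1) and 2 (20.0%) down-regulated (Alb and Cps1). The summed level of the list, most of it albumin, ran from 200729 to 387352 CPM in vehicle rats and from 94198 to 198667 CPM in treated rats without overlap. Of 12 T and NK cell markers 3 (25.0%, against 9.55% of all genes) were up-regulated, 0 in the 10-rat fit, 1 in each fit without treated replicate 2 or 3 or vehicle replicate 1, 4 or 5, and 7 without vehicle replicate 3.

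The difference from the male response was tested in a joint fit of the female and male rats of day 29, in which the vehicle males of day 29 were placed by their title, since another of their labels assigns them to the other experiment of the study. Of 11621 genes tested, 8 (0.0688%) differed by the same criteria, 4 in each direction, and 1958 had an unadjusted p under 0.05. DESeq2 called 107 differences (14 up and 93 down). A single male, treated replicate 3, stood apart from its group. By its title this is the rat whose Ki67 labelling the paper found to be an outlier and left out of its benchmark dose modelling. Without it 768 genes differed, 378 (3.24% of 11652) of them with the higher response in females, while without treated replicate 2 of either sex 0 did, and without female treated replicate 5 or vehicle replicate 2 there were 521 and 107.

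Levels here are CPM of the joint fit. Itga6, the laminin-binding integrin alpha 6, was at 4.75, 3.62, 4.27, 4.38 and 3.51 CPM in vehicle females and 9.81, 21.0, 9.76, 14.5 and 9.18 CPM in treated females. In males it was at 33.9, 21.9, 33.0, 26.4 and 26.5 CPM without and 18.2, 17.6, 49.2, 19.1 and 13.0 CPM with acetamide. It was higher in every treated female than in every vehicle female and lay below every vehicle male in 4 of 5 treated males, a difference of 1.92 (SE 0.37, adjusted p = 0.0135) on the log2 scale and 2.40 (adjusted p = 2.66e-05) without male replicate 3. Mgst1, a microsomal glutathione transferase, was at 3302, 2063, 2523, 2780.4 and 3616 CPM against 1874, 1229, 1385, 1774 and 2436 CPM in females and at 1922, 2362, 2335, 2450.1 and 1897 CPM against 2973, 3205, 1976, 2575 and 2539 CPM in males, a difference of -0.99 (SE 0.19, adjusted p = 0.0135). Sowahc, an ankyrin repeat protein, differed by 1.23 (SE 0.23, adjusted p = 0.0135), and Iah1, an esterase, by -1.14 (SE 0.23, adjusted p = 0.0135). The others were the kinase gene Camk1 at -0.78 (SE 0.15, adjusted p = 0.0135), the vesicle tethering gene Vps16 at -0.75 (SE 0.15, adjusted p = 0.0135) and the actin disassembly gene Wdr1 at 0.59 (SE 0.13, adjusted p = 0.0444), a call that held in 12 of 25 alternatives. Slc7a1 differed by 2.76 (SE 0.60, adjusted p = 0.0444), and this call held in 10 of 25 alternatives, over which the difference ran from 1.80 to 3.02. Vehicle males were at 2.31, 0.986, 1.04, 0.958 and 7.68 CPM, with replicate 5 far above the others. Treated males were at 0.634, 0.753, 1.62, 1.03 and 0.920 CPM. Cyp17a1, a steroid hydroxylase and lyase, rose in females by 1.26 on the log2 scale (SE 0.45, adjusted p = 0.0491), a call lost in 9 of 16 alternative fits, for example without treated replicate 2 at 0.82 (adjusted p = 0.252), and was not called in males. Its difference from males was 2.26 on the log2 scale (adjusted p = 0.0561), and that of Prom1 was -2.49 (adjusted p = 0.0561), and neither passed the criteria.

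With all rats in the fit, many cell cycle genes were called in both sexes. Of the 46 G2/M genes 38 were up-regulated in males, where 3.70% of all genes were, with a median log2 fold change of 2.92. These and the other male counts given here include replicate 3, and the male response alone was not fitted without that rat. By edgeR or DESeq2 0 of the 46 differed between the sexes, with 3 at an unadjusted p under 0.05. Without male replicate 3, 13 of them differed, all with the higher response in females. The median difference over the list was 1.31 without that rat and -0.53 with it. For Mki67 treated males were at 14.4, 10.4, 247, 13.4 and 3.13 CPM, and the difference of the response was -0.82 (SE 0.78, adjusted p = 0.621) with and 1.68 (adjusted p = 0.0358) without replicate 3. Of the interferon genes 1 was up-regulated and 1 down-regulated in males, and 0 differed between the sexes by edgeR and 1 by DESeq2, with 21 at an unadjusted p under 0.05 and 9 called without male replicate 3. Gbp4 differed by 3.35 (SE 0.76, adjusted p = 0.0552) and without that male by 4.18 (adjusted p = 0.00173). Mt2A differed by -2.28 (SE 0.80, adjusted p = 0.148) and without that male by -2.56 (adjusted p = 0.0321), with vehicle males at 61.4, 45.4, 19.5, 15.4 and 168 CPM and treated males at 28.0, 73.9, 6.99, 94.5 and 164 CPM. Of 32 respiratory chain genes 0 were called in males, and 28 differed between the sexes at an unadjusted p under 0.05, by a median of -0.47 over the list. By the criteria 0 differed by edgeR and 3 by DESeq2. Without male replicate 3, 12 differed, all with the lower response in females.

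The difference from day 8 was tested in a joint fit with the female rats gavaged for 7 days. Reads on genes ran from 17539144 to 30749797 in treated rats of day 8 and from 22945748 to 32460604 in vehicle rats of day 8. Reads of too low alignment quality made up 23.3% of counted lines in day 8 treated replicate 5 and 28.3% in day 8 vehicle replicate 4. In the 10 rats of day 29 they made up 13.6 to 17.9%. The part of depth and read quality in the counts below was not tested. Of 11657 genes tested, 1 (0.00858%) differed, and 932 had an unadjusted p under 0.05. DESeq2 called 1 as well, and the count was 0 in the fit of the 4 groups alone, without treated replicate 2 and without day 8 treated replicate 5. The gene was Pkp3, plakophilin 3, a plaque protein of desmosomes. It was at 20.7, 23.8, 29.9, 27.3 and 27.7 CPM in vehicle rats and 14.1, 8.66, 7.60, 14.0 and 13.4 CPM in treated rats on day 29, without overlap, and at 17.5, 13.3, 16.5, 22.9 and 20.9 CPM and 18.8, 18.4, 16.7, 19.3 and 23.2 CPM on day 8, where the groups overlapped. The difference was -1.25 (SE 0.22, adjusted p = 0.00877) and was called in 22 of 25 alternatives. Of the 46 G2/M genes 23 were up-regulated on day 8, where 2.02% of all genes were, with a median log2 fold change of 1.44, and 0 differed between the days by edgeR or DESeq2, with 3 at an unadjusted p under 0.05. Of the 42 interferon genes 17 were up-regulated on day 8 and 0 differed between the days, with 9 at an unadjusted p under 0.05. For Mki67, the day 8 rats were at 3.30, 7.69, 3.50, 9.05 and 4.86 CPM in the vehicle group and 11.2, 13.0, 26.7, 53.6 and 14.1 CPM in the treated group.

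**Figure D5:**
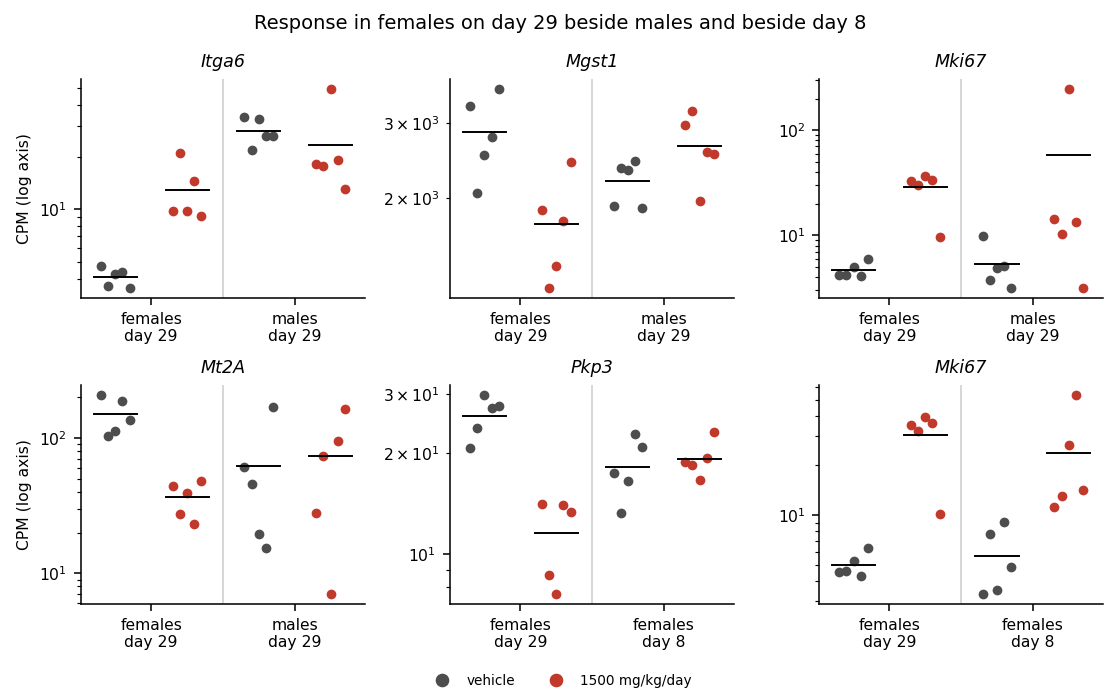
Expression (y axis, CPM of the joint fit on a log axis) in vehicle rats (grey) and 1500 mkd rats (red), 1 point per rat with the group mean as a line, for females of day 29 beside males of day 29 (Itga6, Mgst1, Mki67, Mt2A) or beside females of day 8 (Pkp3 and the second Mki67 panel). In the male Mki67 panel 1 rat lies at 247 CPM, and Pkp3 is lower in treated rats on day 29 and overlaps on day 8.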

How the data were processed

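Liver RNA was sequenced from 145 rats, and the comparison described here uses 5 vehicle and 5 treated female rats. The authors isolated RNA with the Maxwell RSC kit, prepared TruSeq stranded mRNA libraries, trimmed the reads (Trimmomatic), mapped them to Rn6 (Bowtie2) and assigned them to genes (HTSeq). The deposited values are these raw counts, with no normalization, for 17337 genes. HTSeq summary lines, 35.5 to 44.7% of the counted lines of the 10 rats, entered neither library sizes nor fits. Between 22718135 and 34018491 reads fell on genes per rat, and this depth bears on counting error and on which genes with few reads are tested. No pair of columns was identical.

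Counts were normalized by TMM, filtered by filterByExpr and tested in edgeR 4.0.16 (R 4.3.3; quasi-likelihood), with all 30 female rats of day 29 in a fit. Differences from males and from day 8 were tested as interactions in joint fits of 60 rats. Standard errors are |log2 fold change| divided by the square root of F. Calls needed a 1.5-fold change and an adjusted p (Benjamini-Hochberg) no higher than 0.05. Single measures of the libraries were compared by an exact two-sided permutation test. The fits were tested on simulated counts with known fold changes. Levels are CPM scaled by TMM.

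The members, the 39 gene lists of function and the 12 of cell type markers were chosen with earlier results of these data known. The genes named are taken from those the study names, the 12 largest fold changes in each direction with separate groups and a mean of 1 CPM or more, the first gene and the 3 largest called members of each list, the 5 called genes of highest mean and the 5 largest interactions. Any other gene named was chosen after its values were seen, and some genes that these rules take are not reported here. Promoters are the 250 bases before the start in RefSeq (GRCr8), a build other than that of the counts, matched by symbol. Other fits used DESeq2 1.42.0 (Wald test), its size factors in edgeR, no filter, a filter at a mean of 1 CPM, only the 2 groups, the replicate number as a block and leaving out each rat, 16 in all.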

Additional observations from a re-analysis of the deposited data

Results flagged for a closer look

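Among 93 genes of the report and 2 measures of the libraries, 190 groups of 5 rats were checked for a rat whose gap to its nearest neighbour exceeded 0.71 of the group's range (Dixon's 95% value), a limit that chance passes in about 5% of groups, and 24 values did so. Treated replicate 5 gave 10 of them. It was the lowest of its group at Mki67 (10.1 CPM), Cdk1 (3.15 CPM), Cdca3 (0.979 CPM), Pbk (0.851 CPM), Kif18b (1.91 CPM), Stmn1 (4.89 CPM) and Nqo1 (8.55 CPM), and the highest at Fasn (192 CPM), Acly (179.5 CPM) and Lhx8 (4.13 CPM). The genes of the cycle share this rat, so these values are not independent.

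Vehicle replicate 3 gave 6 values, all high, at Fasn (1494 CPM), Acly (1049.8 CPM), Pklr (949 CPM), Acot1 (9.51 CPM), Lhx8 (19.4 CPM) and Cyp1a1 (1.97 CPM). Vehicle replicate 1 was high at Nqo1 (94.9 CPM) and Slc4a1 (11.9 CPM), and vehicle replicate 2 at Ccnd1 (169 CPM). Treated replicate 2 was high at Acot1 (198 CPM) and Tnfrsf12a (34.7 CPM), treated replicate 3 was high at Ifit1 (85.8 CPM) and low at Pdgfrb (25.1 CPM), and treated replicate 1 was high at Phgdh (1.88 CPM).

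The response differed between females and males on day 29 by the interaction test of edgeR at 8 genes. The log2 difference, females minus males, was 1.92 at Itga6, 2.76 at Slc7a1, 1.23 at Sowahc, 0.59 at Wdr1, -1.14 at Iah1, -0.99 at Mgst1, -0.78 at Camk1 and -0.75 at Vps16. The response of females on day 29 differed from that on day 8 at Pkp3, by -1.25.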

How the results depend on the processing

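Of 1479 log2 fold changes of 93 genes of the report over the alternatives, 1402 kept their direction and side of the criteria, 77 kept the direction and lost the call, and 0 reversed, and 60 of the 89 called genes were called in every alternative that tested them. The 1498 calls (1093 up, 405 down) became 488 (397 up, 91 down) in the fit of the 2 groups alone. There fewer rats, and none of the lower doses, estimate the spread. When each rat was left out the calls ranged from 802 to 1982 (up 639 to 1340, down 163 to 642). They were lowest without treated replicate 2 and highest without treated replicate 5. DESeq2 called 1639, its size factors 1498, no filter 1510 and a filter at a mean of 1 CPM 1271. The 8 differences between the sexes became 107 by DESeq2 and 0 in the fit of the groups compared alone, and ranged from 0 to 768 when each rat was left out. The single difference between day 29 and day 8 became 0 in the fit of the groups alone and ranged from 0 to 3. Beyond the change in the number and dose groups of the rats that set the spread, the cause was not tested. The replicate number as a block gave 1475 calls (1079 up, 396 down), 10 differences between the sexes and 1 between the days, and ended the calls of Acly, Cps1, Cyp17a1, Fasn and Ifit1 among the genes described. Same-numbered rats of the 2 groups correlated at -0.143, 0.149, 0.0014, 0.191 and 0.116. Among treated rats only replicate 5 correlated best with its own number, and among vehicle rats only replicate 2. The highest correlation, 0.327, was that of vehicle replicate 5 with treated replicate 4. So few correlations cannot exclude a weak shared block. The labels do not say what the numbers mark, and the rats were not paired in the main fit. The share of reads on no gene was higher in treated rats by 4.04 percentage points of all lines and by 4.44 of uniquely aligned reads. The depth of 22718135 to 34018491 reads on genes per rat limits genes with few reads in vehicle rats, whose fold changes depend on the prior count of the fit.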

Other observations

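Of 25 genes of bile acid synthesis and transport tested, 2 (8.0%) were up-regulated and 6 (24.0%) down-regulated, against 9.55% and 3.54% of all genes. These counts were 1 and 2 in the 10-rat fit, 1 and 3 without treated replicate 2 and 2 and 2 without vehicle replicate 5. Slc27a5, the ligase that activates bile acids before conjugation, had a log2 fold change of -0.85 (adjusted p = 0.000562 by edgeR) and Cyp27a1, the sterol 27-hydroxylase, of -0.82 (adjusted p = 0.0071), and at both all treated rats lay below all vehicle rats. Baat, which joins bile acids to glycine or taurine, and Abcb11, the canalicular bile salt pump, were down-regulated with overlap, at log2 fold changes of -0.69 (adjusted p = 0.0107) and -0.82 (adjusted p = 0.0204). Of 25 liver genes that differ between the sexes 1 (4.0%) was up-regulated and 7 (28.0%) down-regulated, against 9.55% and 3.54% of all genes. These counts were 1 and 0 in the 10-rat fit and 1 and 2 without treated replicate 2 or vehicle replicate 5. The list shared members with the bile acid, sulfotransferase and receptor lists. Of 20 steroid metabolism genes 3 (15.0%) were up-regulated and 2 (10.0%) down-regulated, and 0 in the 10-rat fit. Of 38 glucose metabolism genes 3 (7.89%) were up-regulated and 5 (13.2%) down-regulated. Among them were the hexokinases Hk2 and Hk3 at log2 fold changes of 0.95 (adjusted p = 0.0198) and 1.08 (adjusted p = 0.0423), and the fructose enzyme Khk at -0.91 (adjusted p = 0.0018). These counts were 1 and 2 in the 10-rat fit, and the up-regulated count was 1 without treated replicate 2 and 9 without treated replicate 5. Of 28 lipid droplet and lipoprotein genes 2 (7.14%) were up-regulated and 4 (14.3%) down-regulated, 2 and 0 in the 10-rat fit. Of 32 respiratory chain genes 0 were up-regulated and 2 (6.25%) down-regulated, 0 and 0 in the 10-rat fit. Of 36 hepatocyte transcription factor genes 1 (2.78%) was called in each direction. Of 20 pericentral and 19 periportal genes 1 was up-regulated in each list (5.00% and 5.26%) and 3 down-regulated (15.0% and 15.8%). In the 10-rat fit the pericentral counts were 0 and 2 and the periportal 0 and 0. The down-regulated count of pericentral genes was 2 without treated replicate 2 and 6 without treated replicate 5, and that of periportal genes 1 without treated replicate 2 or vehicle replicate 4 and 5 without vehicle replicate 3.

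Of 34 chemokine and cytokine genes tested 6 (17.6%) were up-regulated, against 9.55% of all genes, and 1 down-regulated, 2 and 1 in the 10-rat fit, and the up-regulated count was 2 without treated replicate 2 and 9 without treated replicate 5. Cxcl16, a chemokine and scavenger receptor, rose by 1.34 on the log2 scale (adjusted p = 0.000801 by edgeR) with all treated rats above all vehicle rats, and Cx3cr1, the fractalkine receptor of monocytes, rose by 1.54 (adjusted p = 0.0148) with overlap. Of 17 MHC and antigen processing genes 5 (29.4%) were up-regulated and 0 down-regulated, but 0 without treated replicate 3 or vehicle replicate 4 and 1 in the 10-rat fit and without treated replicate 2 or vehicle replicate 1. Of 9 markers of infiltrating monocytes and dendritic cells 2 (22.2%) were up-regulated, 1 in the 10-rat fit, and the summed level of the list ran from 77.1 to 104.2 CPM in vehicle rats and from 88.1 to 394 CPM in treated rats. Of 8 endothelial markers 2 (25.0%) were up-regulated, of 6 cholangiocyte markers 1 (16.7%) and of 3 neutrophil markers 1 (33.3%), against 9.55% of all genes. Each of these counts was 0 in the 10-rat fit. The B cell marker Cd79b was not called at a log2 fold change of 0.68 (adjusted p = 0.316), nor was the adipocyte marker Cfd at -0.08 (adjusted p = 0.861).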
